A study of Rattus norvegicus with 34 samples.

Results

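The dorsal hippocampus of rats that had sugar to drink in early life was compared with that of rats given only water, by mRNA sequencing of 14 rats (7 Sug and 7 Ctl) out of the 34 rats of the study. The 14 are all the rats that the sample labels place in the first experiment, and they were chosen by treatment label. Earlier results of these data were known when the comparison was chosen. Both groups were male Sprague Dawley rats, housed one to a cage with chow and water always at hand. Sug rats drank sugar water at 11% weight by volume, in which fructose made up 65% and glucose 35% of the sugar, beginning at postnatal day (PN) 26 to 28. The labels and the study's methods name glucose, while the text deposited with the series names sucrose, and the labels were followed. Ctl rats had a further bottle of filtered water over the same period. The labels have treatment end at PN104 in both groups. The study's methods, and its discussion of the expression data, place hippocampal collection on an earlier day, and the methods describe a smaller cohort. The sources therefore differ, and the age at collection was not settled here.

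The hippocampus is required for episodic and contextual memory, and its dorsal part is most closely tied to spatial and contextual learning. A punch of this tissue holds pyramidal and granule neurons, interneurons, astrocytes, oligodendrocytes, microglia and vessel cells, all of which add to a bulk library. In such a library, fewer cells of a type and less RNA per cell cannot be told apart. The labelled tissue was not checked against marker genes, because the deposited files list Ensembl transcript identifiers only and no table pairing them with genes was used here. The exception is the mitochondrial genome, whose 13 mRNAs can be named from their identifiers. They encode the membrane core of 4 of the complexes of oxidative phosphorylation, the process that supplies neurons with most of their ATP, and are transcribed inside the organelle as long precursors that are later separated.

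Between 15871009 and 18862499 reads were assigned to transcripts in Sug rats and between 15212701 and 22332725 in Ctl rats. A number after the letter S in each deposited description, the usual form of a line on a sequencing sample sheet, puts the rats of the study in an order of groups that starts over once, and this defined 2 sheet sets. Sheet set 1 held 4 of the 14 rats (Sug 1, Sug 7, Ctl 1 and Ctl 4) and sheet set 2 the other 10 (5 Sug and 5 Ctl). The sets were therefore balanced between the groups, and the main results that follow are given with and without the set. What the numbers stand for in the laboratory is not given in the sources used here.

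The 13 mitochondrial mRNAs took up a smaller share of the reads in Sug than in Ctl rats, although the difference did not hold after adjustment for the number of measures compared. The share ran from 9.62% through a median of 10.6% to 11.0% of assigned reads in Sug rats, and from 10.5% through a median of 11.2% to 12.3% in Ctl rats. The groups overlapped, with 4 Ctl rats above every Sug rat and 2 Sug rats below every Ctl rat. The mean was 10.5% ± 0.454 (SD, n = 7) in Sug and 11.3% ± 0.752 (SD, n = 7) in Ctl rats, which differ by -0.81 percentage points (p = 0.0315 by a two-sided exact permutation test over 3432 groupings, and 0.152 after Benjamini-Hochberg adjustment over 5 measures per rat). Permuting only within the sheet sets gave p = 0.0410 (exact permutation test over 1512 groupings).

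**Figure D1:**
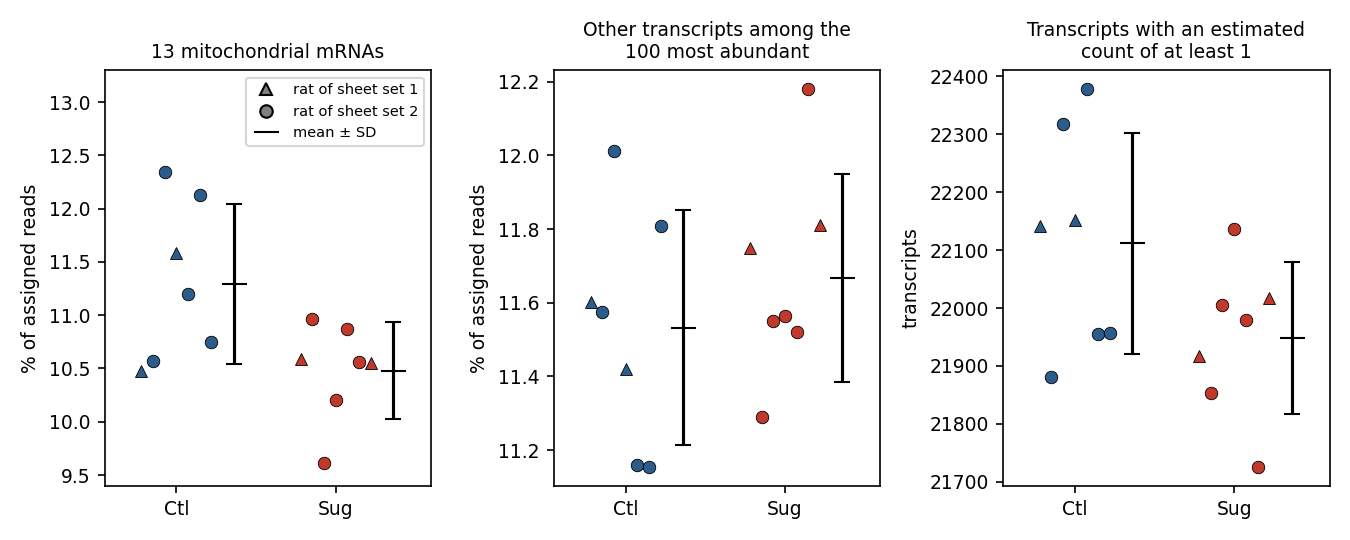
Share of assigned reads on the 13 mitochondrial mRNAs (left, in percent), share on the other 88 of the 100 most abundant transcripts (middle, in percent) and number of transcripts with an estimated count of at least 1 (right), for each of 7 Ctl and 7 Sug rats, with triangles for sheet set 1, circles for sheet set 2 and the mean ± SD beside each group. On the left, 4 Ctl rats lie above every Sug rat, from 11.2% to 12.3%, and the other 3 lie among the Sug rats.

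The difference in mitochondrial share had the same direction in both sheet sets. Among the 10 rats of sheet set 2 it was -0.95 percentage points (p = 0.0714 by a two-sided exact permutation test over 252 groupings). Among the 4 rats of sheet set 1 it was -0.46, where Sug 1 and Sug 7 were at 10.6% and 10.5% and Ctl 1 and Ctl 4 at 10.5% and 11.6%, and no test was run on this share within sheet set 1. Leaving out single rats kept the sign, but the unadjusted p rose above 0.05 without Sug 3 (0.0699), Ctl 3 (0.0612), Ctl 6 (0.0600), Sug 4 (0.0594), Ctl 4 (0.0554) or Ctl 5 (0.0501), each by the exact permutation test.

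Other properties of the libraries were compared beside the mitochondrial share. The log2 number of assigned reads differed by -0.08 (p = 0.356 by a two-sided exact permutation test, 0.352 within the sheet sets; -0.0284 without Ctl 5), and across the 14 rats the mitochondrial share had Pearson's r = 0.30 with it (permutation p = 0.298) and Spearman's rho = 0.13 (permutation p = 0.669), with r = -0.11 without the 2 rats of most extreme depth. Sug libraries held 21948 ± 131 transcripts with an estimated count of at least 1 and Ctl libraries 22112 ± 190.3 (SD, n = 7 each), a difference of -164 (exact permutation test, p = 0.0915, adjusted 0.152, and 0.103 within the sheet sets). The deepest libraries, Ctl 5 and Ctl 3, held the most such transcripts, at 22378 and 22318, and without Ctl 5 the difference was -119.5. The part of depth in this difference was not tested. The 100 most abundant transcripts took 22.1% ± 0.519 of the reads in Sug and 22.8% ± 0.807 in Ctl rats (SD, n = 7 each), a difference of -0.68 points (exact permutation test, p = 0.0810, adjusted 0.152, and 0.0886 within the sheet sets). Of those 100, 12 were mitochondrial, and the other 88 took 11.7% ± 0.282 in Sug and 11.5% ± 0.318 in Ctl rats. Long transcripts were not shifted against short ones beyond the spread between rats, as the slope of log2 abundance on log2 length differed by -0.004 (exact permutation test, p = 0.384, and 0.401 within the sheet sets; -0.0012 without Sug 2). In sheet set 2 alone the p of these 4 measures lay between 0.127 and 0.659 (exact permutation tests). The part of these properties in the mitochondrial share was not tested.

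Transcript by transcript, 11 of the 13 mitochondrial mRNAs had estimates below 0 for Sug against Ctl, where 49.0% of all tested transcripts did. Of these 11, 3 were lower in Sug rats at an unadjusted p under 0.05 with edgeR's quasi-likelihood F-test. That threshold was passed in this direction by 776 of the 20865 transcripts tested, or 3.72%. In the other direction none of the 13 passed, where 3.67% of all tested transcripts did. None of the 13 passed after Benjamini-Hochberg adjustment over all tested transcripts in edgeR, and the lowest adjusted p among them was 0.647. Their median log2 fold change was -0.12, beside a median of 0.003 over all tested transcripts. They share 1 genome and are expressed together, so they are not 13 independent observations.

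Complex V, the ATP synthase, has 2 mitochondrially encoded subunits, Atp6 and Atp8, which form the proton channel and its support. Atp8 (ENSRNOT00000046201.3) ran from 4862 through a median of 5520.1 to 5954 CPM (read counts scaled to a common library size) in Sug rats and from 5399.6 through 6280.2 to 6726 CPM in Ctl rats, with 4 Ctl rats above every Sug rat. Its log2 fold change was -0.16 (standard error 0.062, unadjusted p = 0.0184, adjusted p = 0.647, edgeR), a level 10.7% lower. Atp6 had a log2 fold change of -0.10 (standard error 0.057, edgeR, unadjusted p = 0.0942).

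Atp6 and Atp8 overlap on the mitochondrial genome, and reads from the shared stretch were divided between them. Their estimated counts were not whole in 13 rats each, yet the sum of both came to a whole number within 0.01 in all 14 rats. The sum averaged 15186 ± 1075 CPM in Sug and 16549.7 ± 1266 CPM in Ctl rats (SD, n = 7 each), a log2 difference of -0.12 (p = 0.0542 by a two-sided exact permutation test, and 0.0648 within the sheet sets). With each rat left out, the p of the sum lay between 0.0251 and 0.110 (exact permutation tests). Nd4l also lacked whole counts in 13 rats.

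Complex III has a single mitochondrially encoded subunit, cytochrome b, which takes part in its electron transfer. Its mRNA Cytb (ENSRNOT00000042098.3) ran from 8018 through 9031 to 10222 CPM in Sug rats and from 8867 through 9805 to 11259 CPM in Ctl rats. All Sug rats but Sug 2 lay below all Ctl rats but Ctl 2. The log2 fold change was -0.14 (standard error 0.058, unadjusted p = 0.0277, adjusted p = 0.657, edgeR).

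Complex I, which takes electrons from NADH, has 7 mitochondrially encoded subunits, and 5 of their mRNAs had estimates below 0. Nd4l (ENSRNOT00000044582.3) was the one with an unadjusted p under 0.05, at 2113 ± 150.3 CPM in Sug and 2373 ± 287 CPM in Ctl rats (SD, n = 7 each), with a log2 fold change of -0.17 (standard error 0.073, unadjusted p = 0.0366, adjusted p = 0.664, edgeR). Its 4 highest rats were all Ctl rats. Nd2, Nd4 and Nd5 had log2 fold changes of -0.12, -0.12 and -0.13, and Nd1 of -0.08 (-0.0431 without Ctl 3).

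Nd3 and Nd6, the other complex I members, had estimates above 0 in the fit over all 14 rats. Nd3 was at 923 ± 99.4 CPM in Sug and 900.3 ± 183 CPM in Ctl rats (SD, n = 7 each), and the Ctl mean was pulled down by Ctl 5, at 533 CPM where the other Ctl rats had 836 to 1078 CPM. Without Ctl 5 its log2 fold change was -0.06 in place of 0.04. Nd6, the one mRNA transcribed from the light strand, was the least abundant of the 13, at 87.5 ± 9.05 CPM in Sug and 86.1 ± 14.4 CPM in Ctl rats (SD, n = 7 each), with a log2 fold change of 0.02 over all rats and -0.03 in sheet set 2.

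Complex IV, cytochrome c oxidase, has its 3 catalytic core subunits encoded here. Cox1, the transcript with the most assigned reads of all, ran from 26797 through 29115 to 29820 CPM in Sug rats and from 28151 through 30132 to 33627 CPM in Ctl rats. The 4 highest rats were Ctl rats, and the log2 fold change was -0.07 (standard error 0.043, unadjusted p = 0.109, edgeR). Cox2 and Cox3 had log2 fold changes of -0.12 and -0.08, with unadjusted p = 0.114 and 0.133 from edgeR. Without Sug 3, Cox2 was at -0.0790, and without Ctl 3, Cox3 was at -0.0491. Per kilobase of transcript length, Cox1 stood at 19659.6 CPM and Nd6 at 166 CPM in Ctl rats, and Atp8, a short mRNA whose level rests on divided reads, at 29851 CPM.

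**Figure D2:**
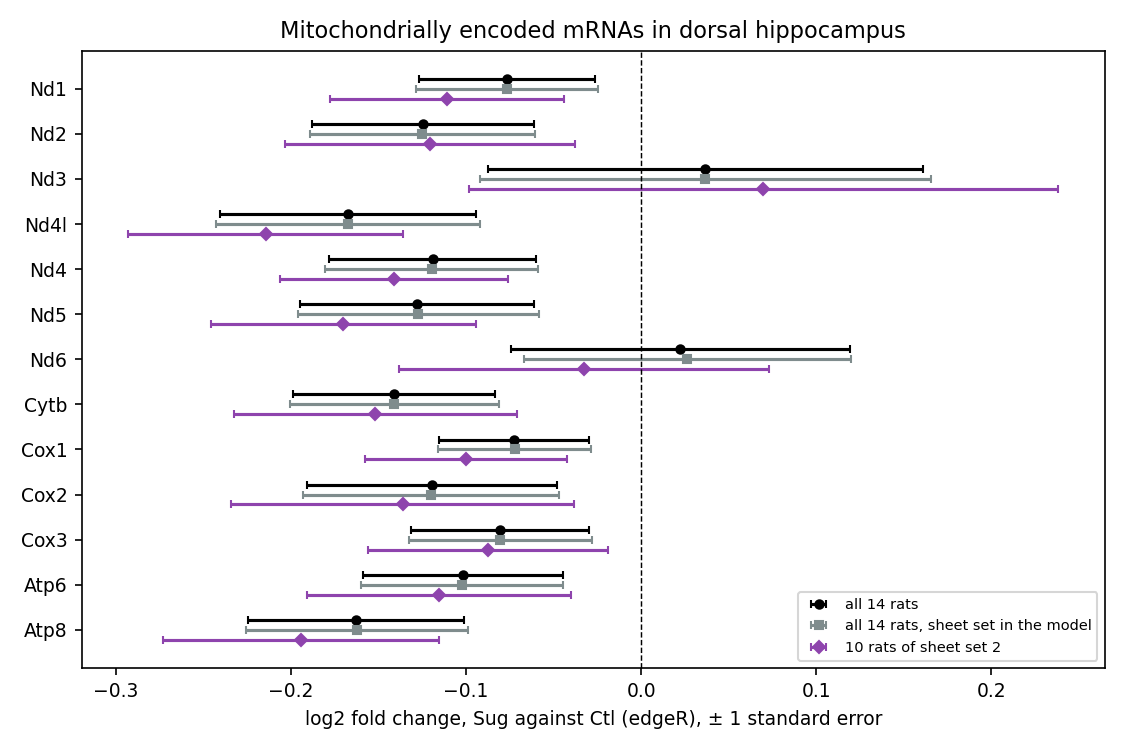
Log2 fold change of Sug against Ctl for each of the 13 mitochondrial mRNAs, from edgeR, with bars of 1 standard error on each side, over all 14 rats (black circles), over all 14 with the sheet set in the model (grey squares) and over the 10 rats of sheet set 2 (purple diamonds). In the fits over all rats, 11 of the 13 points lie left of 0 and Nd3 and Nd6 lie right of it. In sheet set 2 only Nd3 lies right of 0.

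The sheet sets were balanced between the groups, which by design leaves estimates little room to move when the set is in the model. The mitochondrial estimates changed little with the sheet set in the model. Then 3 of the 13 (Atp8, Cytb and Nd4l) were lower at an unadjusted p under 0.05, beside 3.81% of all tested transcripts, and the median log2 fold change was again -0.12. In sheet set 2 alone 12 of the 13 were below 0, and 3 of them (Nd4l, Atp8 and Nd5) passed the unadjusted threshold, beside 3.84% of all tested. In sheet set 1, which shares no rat with sheet set 2, 11 of the 13 were below 0, from -0.14 for Nd2 to -0.01 for Cox1. Nd1 was at 0.004 and Nd6 at 0.17. The sign was the same in both sets for 10 of the 13, and for 54.0% of all 20143 transcripts tested in both. Nd4l, Atp8 and Nd5, which passed in sheet set 2, were at -0.21, -0.19 and -0.17 there and at -0.05, -0.09 and -0.02 in sheet set 1. Of the 13, Cytb alone had an unadjusted p under 0.05 in sheet set 1 (0.0427, edgeR), where 2.43% of all transcripts tested there were lower at that threshold.

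The number of mitochondrial mRNAs past the unadjusted threshold rested on single rats, while the sign of most estimates did not. With each rat left out in turn, the number lower at an unadjusted p under 0.05 (edgeR) was 1 without Sug 3, Ctl 3 or Ctl 6 and 2 without Sug 4 or Ctl 4. It was 5 without Sug 6 or Ctl 7, 6 without Ctl 2 and 7 without Ctl 1, and between 3 and 4 otherwise. In the same fits between 2.91% (without Ctl 6) and 4.24% (without Ctl 2 or Ctl 4) of all tested transcripts were lower at that threshold. The median log2 fold change of the 13 stayed between -0.14 and -0.08.

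Within the mitochondrial reads, the proportions of the 13 mRNAs were not shown to differ between the groups. Cox1 made up 27.5% ± 0.687 of them in Sug and 26.9% ± 0.622 in Ctl rats (SD, n = 7 each; exact permutation test, two-sided, p = 0.126, and 0.122 within the sheet sets). Atp8 made up 5.17% ± 0.132 in Sug and 5.39% ± 0.304 in Ctl rats (SD, n = 7 each; exact permutation test, p = 0.0670, and 0.0741 within the sheet sets). The Ctl mean was raised by Ctl 5, at 6.04% where the other Ctl rats had 5.11% to 5.41%. With each rat left out, the p for Atp8 lay between 0.0175 and 0.160 (exact permutation tests). After Benjamini-Hochberg adjustment over the 13 tests the lowest p was 0.456.

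Over the whole transcriptome, no transcript passed an adjusted p under 0.05 with edgeR (0 of 20865), and the lowest adjusted p was 0.511. At an unadjusted p under 0.05 there were 1542, or 7.39%, and at an unadjusted p under 0.01 there were 315, or 1.51%. DESeq2 gave 19 transcripts, or 0.0911% of the 20865 in its fit, with an adjusted p under 0.05. It gave 19 again with the sheet set in its model, and 15 were in both lists. By its default setting, DESeq2 leaves transcripts of low mean count out of the adjustment. Its adjusted p therefore covers fewer transcripts than that of edgeR. With limma (voom) the count was 0 and the lowest adjusted p 0.325. Adding the sheet set to the edgeR model gave 323 transcripts (1.55%) at an unadjusted p under 0.01, of which 270 were in the list of 315. Sheet set 2 alone gave 275 (1.32%), with 130 in that list, and 0 at an adjusted p under 0.05 (lowest 0.678).

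Differences were small for abundant transcripts. Over all tested transcripts the 10th and 90th percentiles of log2 fold change were -0.29 and 0.19, and the median standard error was 0.10. Of 2022 transcripts with a mean above 100 CPM, 53 had an unadjusted p under 0.01 (edgeR), and the median size of their log2 fold change was 0.17. Of 3114 below 1 CPM, 28 did, with a median size of 1.30. Over all transcripts of these classes, the median size was 0.0431 above 100 CPM, at a median standard error of 0.0458, and 0.304 below 1 CPM, at a median standard error of 0.473, so the size needed to pass the threshold differed between them.

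The direction of these estimates differed with abundance. Above 100 CPM, 44 transcripts were higher and 9 lower in Sug rats at an unadjusted p under 0.01 (edgeR), none of them mitochondrial. Between 10 and 100 CPM, the counts were 87 higher and 70 lower. Between 1 and 10 CPM they were 29 higher and 48 lower, and below 1 CPM 6 higher and 22 lower. The median log2 fold change over all transcripts tested in each class ran the same way, from -0.08 below 1 CPM and -0.03 between 1 and 10 CPM to 0.01 between 10 and 100 CPM and 0.02 above 100 CPM (0.0128 without Sug 6). Transcripts are not independent replicates, and the order of the classes was not tested.

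**Figure D3:**
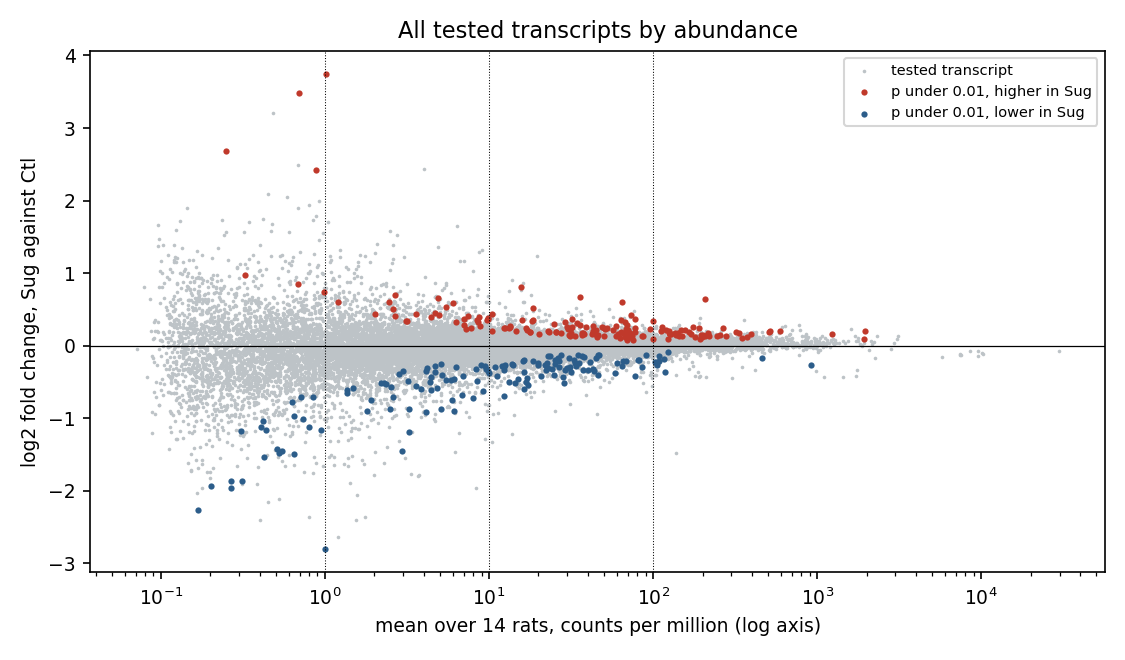
Log2 fold change of Sug against Ctl (vertical) by mean level over the 14 rats in CPM (horizontal, log axis) for 20865 tested transcripts in grey, with those at an unadjusted p under 0.01 (edgeR) in red where higher and blue where lower in Sug rats, and dotted lines at 1, 10 and 100 CPM. To the right of 100 CPM there are 44 red and 9 blue points, and to the left of 1 CPM 6 red and 22 blue points.

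More transcripts higher than lower in Sug rats were found above 100 CPM under each scaling and with each rat left out. There were 49 higher and 8 lower with the sheet set in the model, and 30 higher and 5 lower in sheet set 2 alone. With scaling from the nuclear transcripts alone there were 40 higher and 10 lower, and with scaling by total reads 39 higher and 8 lower. When single rats were left out, between 78.3% and 92.9% of those past the threshold were higher in Sug rats, but the counts themselves moved. They were 24 higher and 6 lower without Ctl 3, 25 and 3 without Ctl 6, 26 and 2 without Sug 4, 26 and 3 without Ctl 5 and 29 and 3 without Sug 7, and the lower ones alone were 5 without Sug 6. DESeq2 gave 70 higher and 14 lower. These fits share most rats, so their likeness is no separate evidence.

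The groups did not overlap at all in 27 transcripts, 13 higher in Sug rats (0.0623% of those tested) and 14 lower (0.0671%). The size of their log2 fold changes had a median of 0.27 and ran from 0.08 to 2.68, and 17 of the 27 had whole counts in all 14 rats, where 42.1% of tested transcripts did. Of the 315 transcripts with an unadjusted p under 0.01 in edgeR, 125 stayed under it with every single rat left out, 67 higher and 58 lower in Sug rats. The rats in those fits took part in choosing the 315, so the 125 are a description. The sheet set left 259 of the 315 under 0.01 when it was in the model and also under 0.05 in sheet set 2 alone, whose rats took part in choosing the list.

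The 2 transcripts of smallest p in each direction are given by identifier, and their genes are not named here. They were selected for their difference, so the values are a description. ENSRNOT00000076481.2 ran from 30.1 through 35.7 to 40.8 CPM in Sug rats and from 25.1 through 28.1 to 30.8 CPM in Ctl rats, and only Sug 6 and Ctl 7 crossed. Its log2 fold change was 0.37 over all rats (adjusted p = 0.511 with edgeR and 4.95e-04 with DESeq2) and 0.35 in sheet set 2. With single rats left out, its adjusted p from edgeR was 0.0421 without Sug 6. Otherwise that adjusted p lay between 0.222 (without Ctl 7) and 0.835 (without Ctl 3). The estimated count was not whole in any rat, as its reads were divided with other transcripts.

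ENSRNOT00000017765.4 was higher in all 7 Sug rats than in any Ctl rat, from 112 through 121 to 144 CPM against 98.8 through 105 to 110.5 CPM. The log2 fold change of this transcript was 0.25 with a standard error of 0.049 (adjusted p = 0.566 with edgeR and 0.00933 with DESeq2), and 0.29 in sheet set 2. Both Sug rats of sheet set 1 (115 and 121 CPM) were above both Ctl rats of that set (105 and 106 CPM).

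ENSRNOT00000074212.1 was lower in all 7 Sug rats than in any Ctl rat, from 28.6 through 34.2 to 36.1 CPM against 36.8 through 41.2 to 47.4 CPM, and the gap between the groups was narrow. Its log2 fold change was -0.33 over all rats (adjusted p = 0.566 with edgeR and 0.00438 with DESeq2) and -0.35 in sheet set 2. ENSRNOT00000087731.1 was also lower in all 7, from 18.1 through 19.96 to 20.4 CPM in Sug rats against 21.8 through 23.5 to 29.9 CPM in Ctl rats, with a log2 fold change of -0.34 (standard error 0.065; adjusted p = 0.566 with edgeR and 0.00933 with DESeq2) and -0.40 in sheet set 2. Its Ctl rats were spread over a wider range than its Sug rats.

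**Figure D4:**
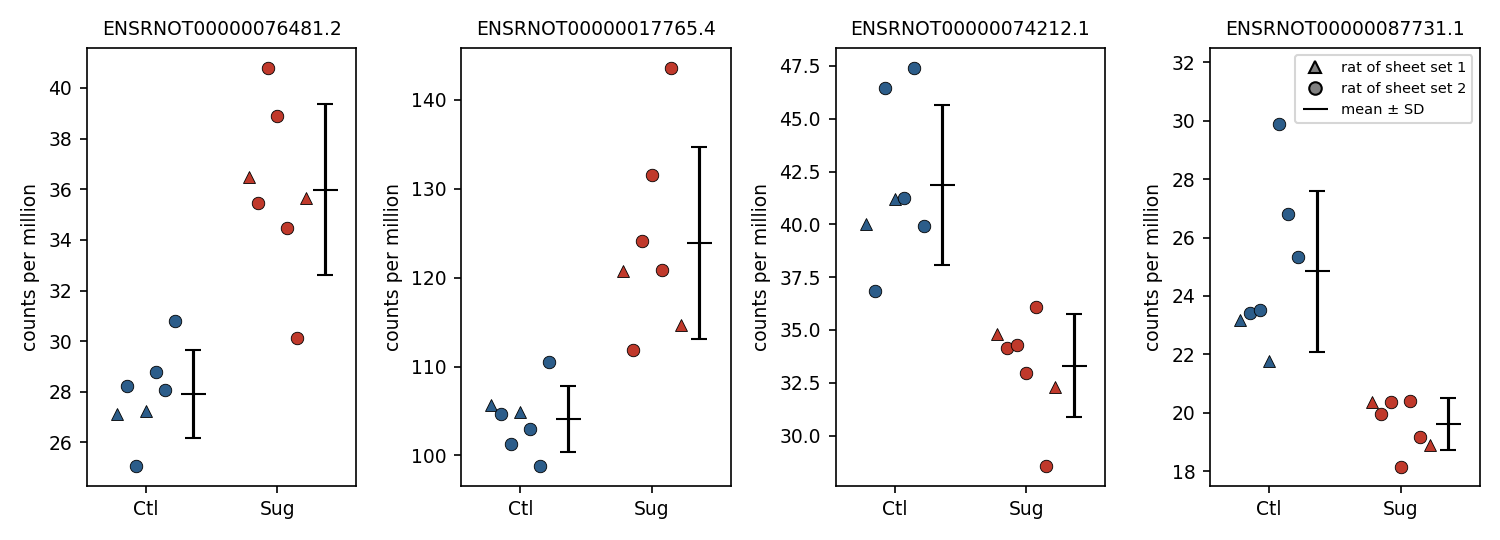
Level in CPM of the 2 transcripts of smallest p among those higher in Sug rats (left pair) and among those lower (right pair) in each of 7 Ctl and 7 Sug rats, with triangles for sheet set 1, circles for sheet set 2 and the mean ± SD beside each group. The groups do not overlap in any panel but the leftmost, where 1 Sug rat at 30.1 CPM lies among the Ctl rats.

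Directions chosen in one sheet set were examined in the rats of the other. Of 270 transcripts with an unadjusted p under 0.01 in sheet set 2 (edgeR) that were also tested in sheet set 1, 159 (58.9%) had the same sign in sheet set 1, where 54.0% of all 20143 transcripts did. Those higher in Sug rats of sheet set 2 had the same sign in 76 of 134 cases and those lower in 83 of 136. The median size of the log2 fold change was 0.35 in sheet set 2, where the transcripts were selected, and in sheet set 1 the median along the same direction was 0.04. Sheet set 1 holds 2 rats against 2, and its estimates are imprecise.

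**Figure D5:**
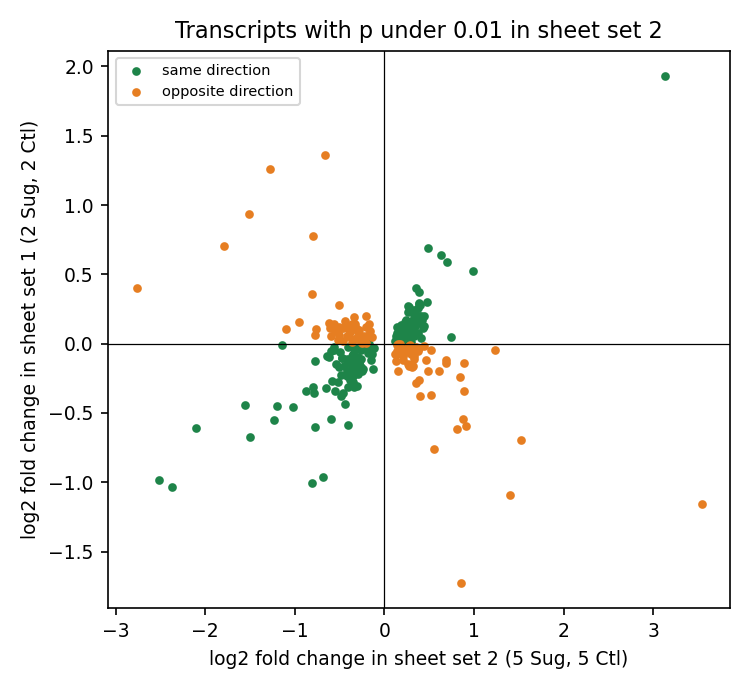
Log2 fold change of Sug against Ctl in sheet set 1 (vertical, 2 rats against 2) by that in sheet set 2 (horizontal, 5 against 5) for the 270 transcripts with an unadjusted p under 0.01 in sheet set 2, in green where the sign was the same and in orange where it was opposite. There are 159 green points, and most values on the vertical axis lie near 0.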

How the data were processed

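Total RNA from hippocampal punches was made into mRNA libraries, and per the submitters' processing notes FastQC, Trim Galore and Salmon were used. The authors mapped the reads to the Rnor6 transcriptome, and the deposited files give for 31196 transcripts the expected counts estimated by Salmon, with reads that match several transcripts divided among them, and TPM. Version numbers and the use of strand are not given in the sources used here. TPM, which the authors' tool scales to reads per effective length, served only for an alternative mitochondrial share, as Atp8 alone made up a median of 419229 TPM at an effective length of 10.4 bases.

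After rounding, a transcript was kept if over 50% of the 14 rats had a count above 1 (20865 transcripts). Sug was compared with Ctl in edgeR 4.0.16 by its quasi-likelihood F-test with TMM scaling and Benjamini-Hochberg adjustment in R 4.3.3. CPM used the TMM library sizes. Single values per rat were compared by exact permutation of the 14 rats, two-sided. DESeq2 1.42.0, limma 3.58.1 and the other settings of the closing section were alternatives, and the DESeq2 fit with the sheet set, the share among whole counts and the sum of Atp6 and Atp8 were added after seeing the data.

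The mitochondrial mRNAs were matched by identifier from a hand-written list whose transcript lengths were not checked against an annotation. The rats compared, the list and the tests were chosen with earlier results of these data known. Named were the 13 mitochondrial mRNAs and, with no pairing of identifiers and genes, the 2 transcripts of smallest p in each direction. Counting error is part of the spread that the models estimate. No 2 libraries of a group were repeats of each other (chi-square per degree of freedom of at least 3.49 over 42 pairs).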

Additional observations from a re-analysis of the deposited data

Results flagged for a closer look

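Over 70 sets of 7 values (each named level, mitochondrial proportion and measure per rat, in Sug and in Ctl rats), 4 had 1 rat standing apart by Dixon's criterion of 0.568 at the 95% level, where chance gives about 1 in 20, or 3.5. Sug 3 was low for Cox1, at 26797 CPM where the other Sug rats had 28656 to 29820, and for Cox2, at 5794 CPM where the others had 6948 to 7797. It also had the lowest mitochondrial share of all 14 rats, at 9.62%. Ctl 5, the most deeply sequenced rat, was apart from the other Ctl rats in the proportions of its mitochondrial reads. Cox3 made up 8.28% of them where the other Ctl rats had 8.66% to 8.87%, and Atp8 made up 6.04% where they had 5.11% to 5.41%.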

How the results depend on the processing

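Counts of transcripts with an adjusted p under 0.05 moved from 0 with edgeR to 19 with DESeq2, whose adjustment covered fewer transcripts. The DESeq2 count was 19 with or without the sheet set in its model. With each rat left out, the edgeR count ranged from 0 to 1 (1 without Sug 6 or Ctl 7). With whole counts only, where fewer transcripts were tested, 330 were higher and 480 lower in Sug rats at an unadjusted p under 0.05, in place of 766 and 776. The number of mitochondrial mRNAs lower at that threshold, 3 in the reported fit, was 5 with DESeq2 (3.91% of all tested transcripts; 5 and 3.95% with the sheet set), 6 with scaling by total reads (3.94%), 1 with whole counts only (10 of the 13 kept; 5.46%) and 1 to 7 with each rat left out. The difference in mitochondrial share was -0.95 points in sheet set 2 alone, with fewer rats, and between -0.95 and -0.64 with each rat left out. As a share of TPM it was -2.80 points (exact permutation test, p = 0.0274). As a share of the reads on transcripts with whole counts it was -1.18 points (exact permutation test, p = 0.0385). The sizes of these differences cannot be set side by side. The mitochondrial share of TPM ran from 52.8% (Sug 3) to 60.5% (Ctl 5), with Atp8 alone from 39.7% (Sug 3) to 47.1% (Ctl 5). The share of the reads with whole counts ran from 16.3% (Sug 3) to 20.5% (Ctl 3). The unadjusted p of 2 other measures passed under 0.05 without 1 rat: the number of transcripts detected (0.0390 without Ctl 2, exact permutation test; differences from -202 to -120 over the rats left out) and the share of the 100 most abundant transcripts (0.0431 without Ctl 1, exact permutation test; -0.80 to -0.41). Nd3 turned to -0.01 without Sug 2 and -0.0616 without Ctl 5 (range -0.0616 to 0.0825), and Nd6 to -0.0327 in sheet set 2 alone and to between -0.0298 and -0.0062 without Ctl 1, Ctl 2, Sug 2 or Sug 5 (highest 0.0965). The cause of these moves was not tested. Replicate numbers did not pair the rats: of 7 same-numbered pairs 1 had a correlation of deviations over 0.1 (range -0.09 to 0.16), and 1 rat correlated best with its own number. With the replicate block, 0 transcripts passed the adjusted threshold, 0 of the mitochondrial mRNAs passed the unadjusted one, and the mitochondrial share differed by -0.81 points (exact sign-flip permutation test, p = 0.125). All 4 transcripts given by identifier passed an adjusted p under 0.05 with DESeq2, with or without the sheet set, and ENSRNOT00000076481.2 also with edgeR without Sug 6. In the other alternatives run, the counts over all tested transcripts stayed within 1.5 times, and the estimates of the mitochondrial mRNAs, of these 4 transcripts and of the measures per rat kept their sign.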

Other observations

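The 20 rats of the study's other experiment were not part of any comparison here, and their mitochondrial share ran from 9.36% through a median of 11.3% to 13.5% of assigned reads. All 14 rats of the sugar experiment lay inside that range. Of the 27 transcripts whose Sug and Ctl rats did not overlap, 3 had an unadjusted p of 0.01 or above with edgeR.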
